A study of Bos indicus with 8 samples.

Results

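The genes of sterol synthesis, of its SREBP regulators and of cholesterol transport within cells were followed in bovine blastocysts after vitrification. The set holds 27 genes, taken by name from the platform annotation, in which MSMO1 and SC5D carry the older names SC4MOL and SC5DL. They are 27 of 15229 distinct gene symbols and have 52 of the 43794 gene probes on the array. They were grouped by role: the mevalonate arm, the squalene and lanosterol steps, the route from lanosterol to cholesterol, the SREBP regulators and cholesterol transport. The embryos were Bos indicus blastocysts produced in vitro, graded at 144 to 156 h after insemination and divided between vitrified and control. Vitrified embryos passed through 7.5% and then 15% each of ethylene glycol and dimethylsulfoxide, the latter with 0.5 M sucrose, were plunged into liquid nitrogen on a Cryotop, a thin strip that holds a minimal volume, and were warmed after at least 30 min. Control embryos stayed meanwhile in the handling medium at 37 °C and met neither cryoprotectant nor nitrogen, and both groups were then cultured for 4 h. Each RNA pool came from 10 embryos, and those kept looked normal after culture, so embryos that did not recover are not represented. A pool holds all cells of the blastocyst, so fewer cells of a type and less RNA per cell cannot be told apart.

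Cholesterol is built from acetyl units through mevalonate, isoprenoids and squalene to lanosterol, which a further chain of enzymes in the endoplasmic reticulum turns into cholesterol. The genes of these enzymes are switched on together by the SREBP transcription factors, which SCAP carries to the Golgi for activation when membrane sterol is low and which the INSIG proteins hold back when it is high. Cholesterol sets the fluidity and permeability of the plasma membrane.

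RNA was amplified, labelled and hybridised on 8 two-colour arrays, each carrying 1 vitrified and 1 control pool. Arrays on neighbouring areas of a slide are dye swaps and were averaged into 4 pairs: pairs 1 and 2 are areas 1 and 2 and areas 3 and 4 of the first slide, and pairs 3 and 4 are the same areas of the second slide. With the dye effect removed, neighbouring areas correlated at a mean r of 0.842 across probes, against 0.101 for other arrays that share a labelled replicate number. A probe counted as above background when its signal lay more than 2 SD over the mean of the negative controls. Between 72.3% and 79.2% of probes did so on 7 arrays and 28.0% on area 1 of the second slide, which belongs to pair 3. When outlying negative controls were removed before that limit was set, the share there was 76.7%. A gene was tested when above background on at least 4 arrays in either group, as 13133 of 15229 named genes were. This held for 9 of 9 trophectoderm, 4 of 4 inner cell mass and 4 of 4 primitive endoderm markers on the array. Being tested therefore says little about a marker. Above background in all channels were 5, 2 and 3 of them, against 43.7% of named genes tested. Of 8 cumulus or granulosa markers 6 were tested, with LUM and CYP19A1 above background in all channels. Of 7 oocyte markers 6 were tested, with 0 above background in all channels.

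No sterol gene passed the test between vitrified and control embryos, and most differed by less than the spread between pools. For each gene the probe with the highest mean intensity is given first, and 26 of the 27 genes had such a probe above background on at least 4 arrays in either group. By limma over the 4 pairs, with Benjamini-Hochberg adjustment over 34912 probes, 0 of the 26 had an adjusted p under 0.05, where the background was 0.00% of 13133 named genes. The smallest adjusted p among them was 0.558. Without adjustment, 2 of the 26 had a p under 0.05, against 9.53% of named genes: TM7SF2 was higher in vitrified embryos, where the background was 4.48%, and NSDHL lower, where it was 5.05%. Of the 46 member probes tested 4 had such a p, against 7.72% of all probes. The log2 ratio of vitrified over control was above 0 in 17 and below 0 in 9, against 52.2% of named genes above 0. Its median was 0.071 over the 26 genes and 0.0044 over all named genes. It ranged from -0.30 for SQLE to 0.30 for CYP51A1, and 3 of the 26 (TM7SF2, INSIG1 and LSS) were above 0 in all pairs measured, against 9.21% of named genes, and 0 were below 0 in all, against 7.47%. Either direction held for 16.7% of named genes. Apart from the word biological in the labels, nothing tells whether the pools came from separate cultures, so p-values measure the spread between these pools, which may be partly technical.

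**Figure D1:**
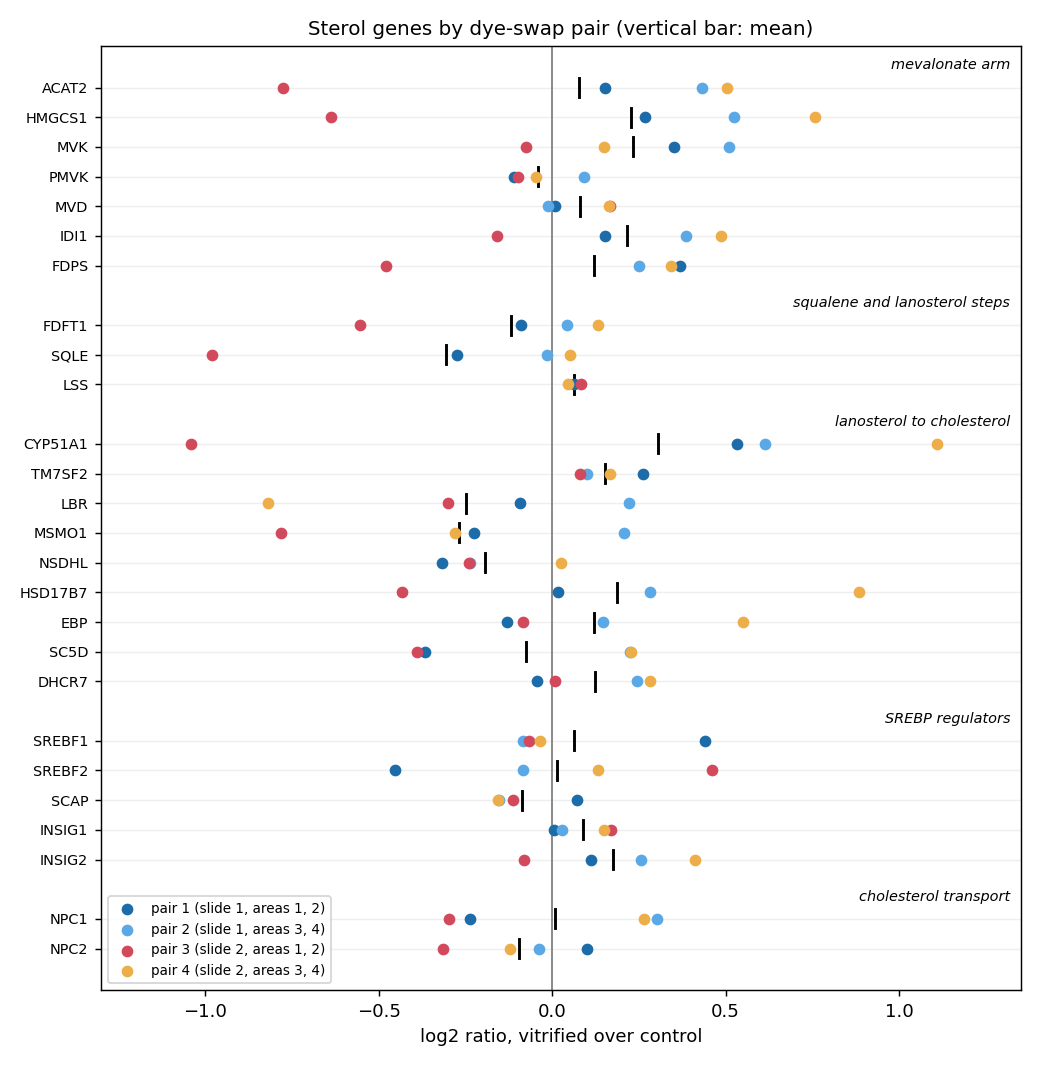
Log2 ratio of vitrified over control (horizontal axis) for the 26 tested sterol genes, in role groups; each dot is 1 dye-swap pair, the mean of 2 arrays, and the vertical bar is the mean of the pairs. Pair 3 lies at the low end for CYP51A1, SQLE, ACAT2, MSMO1 and HMGCS1, while the other pairs of CYP51A1 lie between 0.53 and 1.11.

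The pools disagreed with each other in many enzyme genes. HMGCS1, which makes HMG-CoA at the entry of the pathway, had log2 ratios of 0.27, 0.53, -0.64 and 0.76 in pairs 1 to 4. ACAT2, the cytosolic thiolase that supplies its substrate, was at 0.15, 0.43, -0.78 and 0.50. In each gene 3 pairs were above 0 and pair 3 was below. FDPS, which makes farnesyl diphosphate, was at 0.37, 0.25, -0.48 and 0.34. IDI1, the isopentenyl diphosphate isomerase, followed the same order of signs with 0.15, 0.39, -0.16 and 0.49. MVK, mevalonate kinase, was at 0.35, 0.51, -0.08 and 0.15, so that it too had pair 3 as its lowest. The kinase PMVK and the decarboxylase MVD, which complete the mevalonate arm, varied less. Their brightest probes were dim, with mean log2 intensities of 7.13 and 7.31, and the part of low signal in this was not tested. PMVK lay between -0.11 and 0.09, and MVD between -0.01 and 0.17. Over the pairs, HMGCS1 averaged 0.23 ± 0.61 (SD, n = 4 pairs), MVK 0.23 ± 0.25, IDI1 0.22 ± 0.29, FDPS 0.12 ± 0.40, MVD 0.08 ± 0.10, ACAT2 0.08 ± 0.59 and PMVK -0.04 ± 0.09. Of the 7 genes of the arm, 6 had a mean above 0, and their adjusted p by limma ran from 0.708 to 0.968.

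In SQLE and FDFT1 pair 3 was again the lowest. SQLE, squalene monooxygenase, a rate-limiting enzyme beyond HMG-CoA reductase, was at -0.27, -0.01, -0.98 and 0.05, with a mean of -0.30 ± 0.47 (SD, n = 4 pairs). FDFT1, squalene synthase, was at -0.09, 0.04, -0.55 and 0.13, with a mean of -0.12 ± 0.30. The spread between pairs exceeded the mean in either gene, with adjusted p by limma of 0.809 and 0.904. LSS, which closes squalene into lanosterol, was above background in the vitrified channel of 6 arrays and the control channel of 4. Its pair 2 was dropped because the scanner file sets 1 of the spots aside, and the other pairs lay between 0.05 and 0.08.

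CYP51A1, the lanosterol demethylase and an SREBP target, had the widest spread of the set. Its log2 ratios were 0.53, 0.61, -1.04 and 1.11 in pairs 1 to 4. That is 1.45-fold, 1.53-fold and 2.16-fold higher in vitrified embryos in 3 pairs and 2.06-fold higher in control embryos in pair 3. The mean was 0.30 ± 0.93 (SD, n = 4 pairs), with a 95% interval from -0.67 to 1.28 and an adjusted p of 0.919 by limma. HSD17B7, a ketosteroid reductase of the route, was at 0.02, 0.28, -0.43 and 0.88. MSMO1, the methylsterol oxidase, was at -0.22, 0.21, -0.78 and -0.28, so pair 3 was its lowest while 3 of the 4 pairs were below 0. SC5D, the lathosterol desaturase, was at -0.37, 0.23, -0.39 and 0.23, and there pairs 1 and 3 lay together below the other two. EBP, the sterol isomerase, was at -0.13, 0.15, -0.08 and 0.55. DHCR7, which carries out a final reduction, was at -0.04, 0.24, 0.01 and 0.28 with a dim probe (mean log2 intensity 7.49). In EBP and DHCR7 pair 1 was the lowest and pair 4 the highest.

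The other 3 genes of the lanosterol route had smaller differences or another order. TM7SF2, a sterol reductase, was above 0 in each pair, pair 3 included, at 0.26, 0.10, 0.08 and 0.17, with a mean of 0.15 ± 0.08 (SD, n = 4 pairs), an unadjusted p of 0.0214 and an adjusted p of 0.558 by limma. Its probe was brighter in green than in red, with a dye effect of -0.64 (log2 red over green), and single arrays ran from -0.51 to 1.01 by orientation, so its ratio is a small mean of opposite values. LBR, which shares the reductase activity and also tethers heterochromatin to the nuclear envelope, was at -0.09, 0.22, -0.30 and -0.82, and its lowest pair was pair 4. NSDHL, a decarboxylating dehydrogenase that acts with MSMO1, was at -0.32, -0.24, -0.24 and 0.03, with a mean of -0.19 ± 0.15, an unadjusted p of 0.0385 and an adjusted p of 0.626. NSDHL and EBP are X-linked in the RefSeq table, and XIST, the RNA that silences an X chromosome in female cells, was at -1.22, -1.55, -0.58 and -0.15. Pair 4 was the highest in NSDHL, EBP and XIST, but also in 12 of the 25 members measured in all pairs and in 25.8% of named genes. The part of X dosage in the NSDHL value was not tested.

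In CYP51A1 and HMGCS1 the low value of pair 3 was present on both of its arrays. CYP51A1 was at -0.76 on area 1 and -1.33 on area 2 of the second slide, the arrays of pair 3, and at 0.41 to 1.37 on the other 6 arrays. HMGCS1 was at -0.53 and -0.75 on those arrays and at 0.24 to 0.78 on the others. The low share of probes above background belonged to area 1, and area 2, at 76.6%, gave the larger difference in either gene. These areas have opposite dye orientation, so a value of a single array also holds the dye effect of the probe. That effect (log2 red over green) was 0.18 for CYP51A1 and 0.04 for HMGCS1. SQLE was at -0.81 on area 1 and -1.15 on area 2, ACAT2 at -0.74 and -0.81, and FDFT1 at -0.65 and -0.46. MSMO1 was at -0.62 and -0.94, and FDPS at -0.32 and -0.64. In IDI1, INSIG2 and HSD17B7 area 1 was not low. There and on area 2, IDI1 was at 0.19 and -0.50, INSIG2 at 0.03 and -0.19, and HSD17B7 at -0.03 and -0.84. Their dye effects were larger than that of HMGCS1, at 0.33, 0.14 and 0.37, and cancel only in the pair mean. Levels per channel, scaled between arrays, separate the pools. CYP51A1 had log2 intensities of 12.37, 12.12, 13.19 and 11.72 in the control pools of pairs 1 to 4 and of 12.90, 12.73, 12.15 and 12.83 in the vitrified pools. The control pool of pair 3 was the brightest of the 8 pools and the vitrified pool of pair 3 the dimmest of the vitrified. Among control pools CYP51A1 varied 2.76-fold and among vitrified pools 1.69-fold. HMGCS1 showed the same, at 12.51, 12.50, 13.07 and 12.24 in control pools and 12.78, 13.03, 12.43 and 12.99 in vitrified pools.

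**Figure D2:**
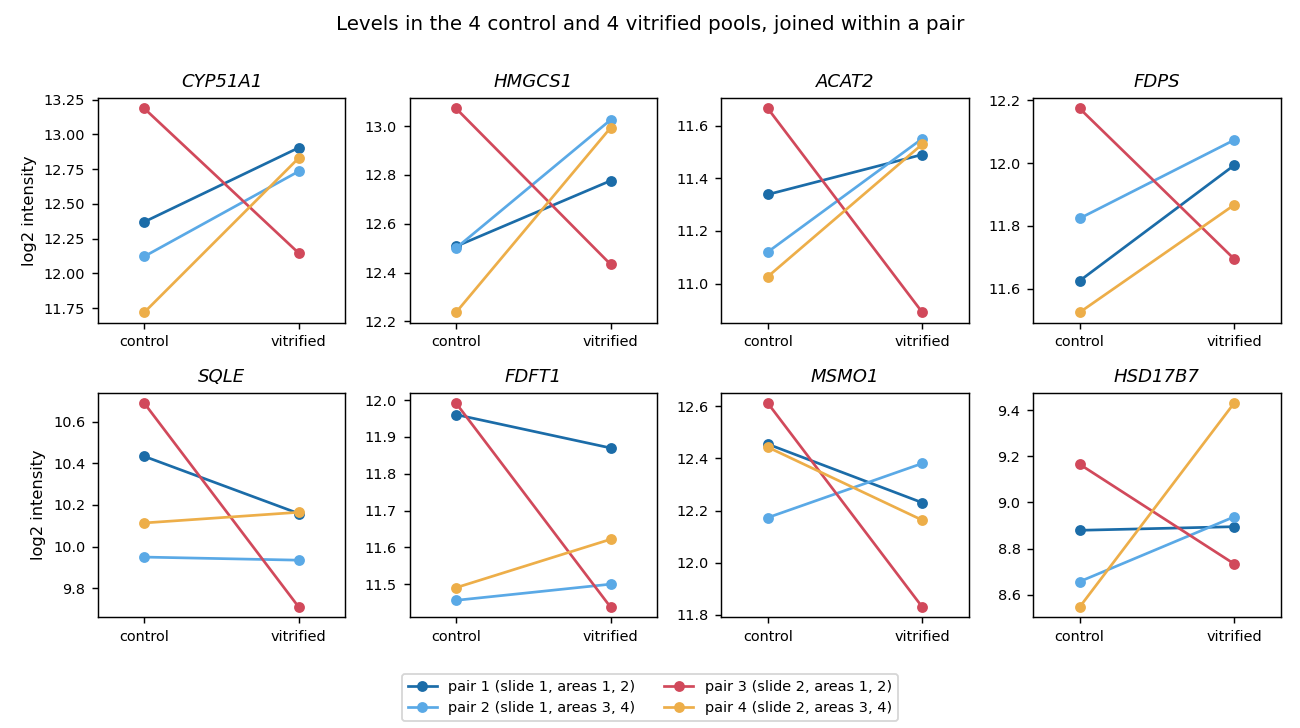
Normalised log2 intensity (vertical axis) of 8 enzymes in the control and vitrified pool of each dye-swap pair; each dot is a pool, the mean of 2 arrays, and a line joins the pools of a pair. In each panel the line of pair 3 falls from the highest control pool to the lowest vitrified pool. For CYP51A1 it runs from 13.19 to 12.15. The panels show only those enzymes of synthesis that had this arrangement, 8 of 18.

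Counted over the set, pair 3 gave the lowest ratio in 15 of the 25 members measured in all pairs, against 23.6% of named genes. Among the enzymes of synthesis this held for 12 of 18. Pair 3 was lowest and pair 4 highest in 9 of the 25, against 9.93% of named genes. The vitrified pool of pair 3 was the dimmest and its control pool the brightest of their kind in 9 of the 25 members: ACAT2, HMGCS1, FDPS, FDFT1, SQLE, CYP51A1, MSMO1, HSD17B7 and INSIG2. Over all named genes 4.14% had that arrangement. These counts were made after the pattern was seen, and a single pair cannot be tested against the others. The members also varied more than most genes: 8 of 26 had an SD over pairs among the top 10.0% of named genes, and CYP51A1 was exceeded or equalled by 0.228% (itself included). The set is better detected than most, with 20 of 26 members above background in all channels against 43.7% of named genes. Among genes so detected, 5 of those 20 were in the top 10.0%.

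Pair 3 was the lowest in many members, so leaving it out raises their ratios by construction, and the values without it are a description. CYP51A1 was then at 0.75, HMGCS1 at 0.52, ACAT2 at 0.36, IDI1 at 0.34, MVK at 0.34, FDPS at 0.32, INSIG2 at 0.26 and TM7SF2 at 0.18. These 8 had unadjusted p from 0.00336 to 0.0312 by limma over 3 pairs, all in the direction of higher in vitrified embryos, against 5.62% of named genes in that direction and 11.9% in either. Without pair 1, 2 or 4, members with an unadjusted p under 0.05 by limma, counted in either direction, numbered 1, 2 and 1. The shares of named genes in those fits were not counted. The direction and the number without pair 3 follow in part from the choice of pair and are no evidence of a rise. None passed adjustment, the smallest adjusted p being 0.416. SQLE was at -0.08 without pair 3, against -0.30 with it.

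Some markers of cell types had an order over the pairs like that of the sterol enzymes, and others did not. The 9 trophectoderm markers had medians of 0.10, 0.29, -0.06 and 0.48 in pairs 1 to 4, with 7 of 9 lowest in pair 3. Their median in pair 4 was the value of CDX2, whose probe was dim (mean log2 intensity 7.17). KRT18, a keratin of trophectoderm, was at 0.01, 1.11, -0.26 and 1.40, and KRT19 at 0.96, 0.52, -0.35 and 1.04. KRT8 was above 0 in each pair, at 0.54, 0.69, 0.03 and 0.53. TEAD4 was lowest in pair 4, at -0.16, 0.08, 0.04 and -0.26. TFAP2C was lowest in pair 2, at 0.35, -0.08, -0.0018 and 0.07. The sterol members had medians of 0.01, 0.21, -0.20 and 0.16 in the same pairs, with 15, 18, 6 and 20 of them above 0. Inner cell mass markers had medians of -0.08, -0.13, -0.15 and -0.49. The 6 tested cumulus or granulosa markers had medians of -0.02, 0.08, -0.13 and -0.02. Among them LUM was at -0.21, 0.82, -0.73 and -2.29, and CYP19A1 at 0.20, 0.10, -0.36 and 0.29. The share of any cell type in the sterol values was not tested. Some markers kept their sign in pair 3: NANOG, a pluripotency factor, was below 0 in that pair as in the others, at -0.80, -0.24, -0.35 and -0.56, and so was PDGFRA, a receptor of primitive endoderm, at -0.25, -0.97, -1.27 and -0.95. HNF4A and GATA4, other endoderm genes, did not, at 0.34, -0.07, -1.55 and 0.18 and at -0.24, -0.21, 0.39 and -0.33. The GATA4 probe had a dye effect of -1.03 (log2 red over green), and its pair 3 value is the mean of -0.83 and 1.61. In pair 3, 2 of 4 inner cell mass and 2 of 4 primitive endoderm markers were above 0, so neither list had a common direction there.

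**Figure D3:**
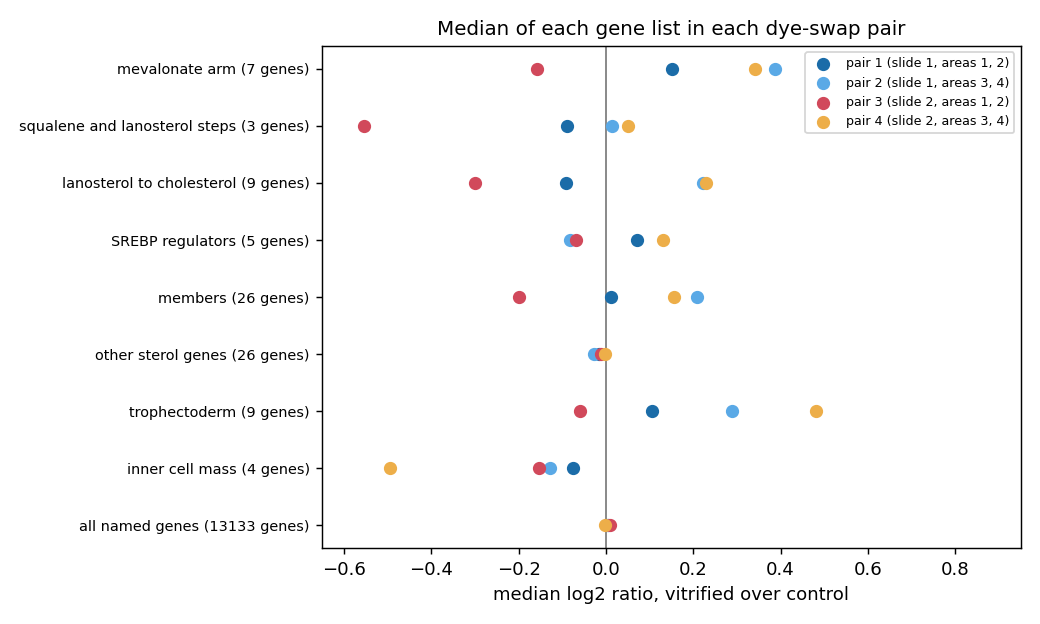
Median log2 ratio of vitrified over control (horizontal axis) of each gene list in each dye-swap pair, with the number of genes tested in brackets. The medians of the sterol members spread from -0.20 to 0.21 and those of trophectoderm markers from -0.06 to 0.48, while those of all named genes lay between -0.0020 and 0.0093.

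Different probes of a gene serve as a check within the arrays, since they share the RNA and the hybridisation but not the sequence. The set has 11 genes with more than 1 tested probe. The 3 probes of CYP51A1 had means of 0.30, 0.24 and 0.26, and in pair 3 they were at -1.04, -0.84 and -0.62. Of the 4 probes of FDPS, 3 were at -0.48, -0.45 and -0.51 in pair 3 and between 0.16 and 0.37 in the others, while the dimmest stayed between -0.16 and 0.05. The brighter probes of HMGCS1 were at -0.64 and -0.63 in pair 3, a dimmer one was at -0.31, and the dimmest, EMBV3_24024, stayed between 0.03 and 0.10. MSMO1 had 3 probes with pair 3 between -0.89 and -0.68. Of these, EMBV3_19872 was at -0.71, 0.11, -0.68 and -0.77 in pairs 1 to 4, so pair 3 was not its lowest. In pairs 1 and 4 the brightest probe was at -0.22 and -0.28. The mean of EMBV3_19872 was -0.51 ± 0.42 (SD, n = 4 pairs), with an unadjusted p of 0.0318 and an adjusted p of 0.595 by limma. The dimmest probe of MSMO1 had a mean of 0.04. The other probes of FDFT1, TM7SF2, PMVK and INSIG2 had means of 0.08, -0.02, -0.04 and -0.02, and those of MVK were at -0.01 and 0.07. These probes are dim, with mean log2 intensities from 6.94 to 7.56. The second probe of NSDHL and the third of SREBF2 were above background on no array, and that of ACAT2 in the vitrified channel of 3 arrays and the control channel of 2.

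**Figure D4:**
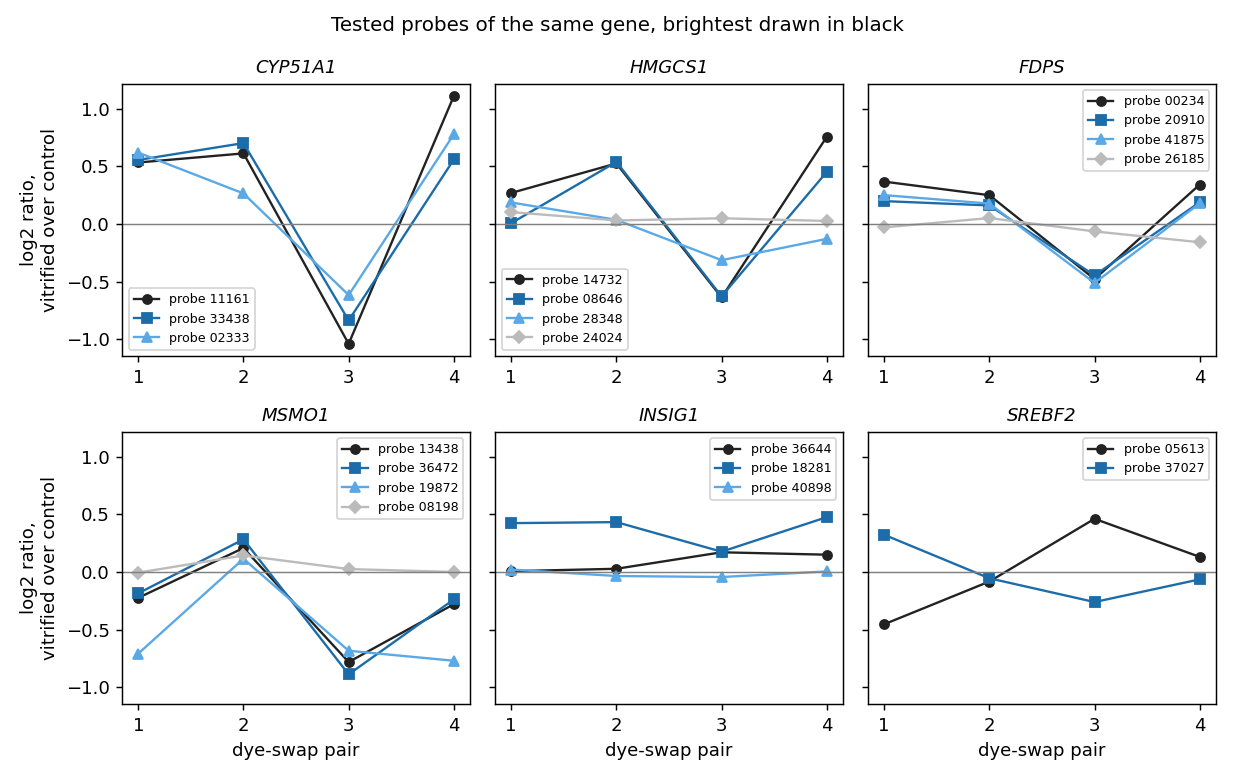
Log2 ratio of vitrified over control (vertical axis) in each dye-swap pair (horizontal axis) for the tested probes of 6 genes; each line is a probe, black for the brightest, and only serves to follow a probe. The 3 CYP51A1 probes lie between -1.04 and -0.62 in pair 3, whereas the 2 SREBF2 probes lie on opposite sides of 0 there, at 0.46 and -0.26.

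Among the regulators, the probes of INSIG1 disagreed. INSIG1 is a direct target of SREBP and retains the SCAP complex in the endoplasmic reticulum. Its second brightest probe, EMBV3_18281, was at 0.42, 0.43, 0.18 and 0.48 in pairs 1 to 4, above 0 in each, with a mean of 0.38 ± 0.14 (SD, n = 4 pairs). By limma its unadjusted p was 0.0022 and its adjusted p 0.459. This probe had a dye effect of -0.25 (log2 red over green). Single arrays ran from -0.06 to 0.33 with vitrified RNA in red and from 0.41 to 0.86 with it in green. The brightest probe of the gene was at 0.09 ± 0.08 and the remaining one at -0.01 ± 0.03. INSIG2, the other retention protein, was at 0.11, 0.26, -0.08 and 0.41, the order seen in the enzymes, with a mean of 0.17 ± 0.21. SREBF2, which encodes the SREBP that chiefly drives cholesterol synthesis, was at -0.45, -0.08, 0.46 and 0.13 with its brightest probe and at 0.32, -0.05, -0.26 and -0.06 with the next. The probes had opposite signs in 3 of the 4 pairs, and the gene gave no usable direction. SREBF1, whose products act more on fatty acid synthesis, was at 0.44 in pair 1 and between -0.09 and -0.03 in the others. SCAP, the escort, lay between -0.16 and 0.07 with a mean of -0.09 ± 0.11.

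The genes that move cholesterol showed small differences. NPC1, which exports cholesterol from lysosomes, was at -0.24, 0.30, -0.30 and 0.27, with a mean of 0.01 ± 0.32 (SD, n = 4 pairs). NPC2, which hands cholesterol to NPC1, was at 0.10, -0.04, -0.32 and -0.12, with a mean of -0.09 ± 0.17. STARD4, a cytosolic sterol carrier, was not well above background: its brightest probe passed in the vitrified channel of 3 arrays and the control channel of 2, and its other probes on none.

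Another 26 genes of sterol biology were tested from a wider list of 36, none of them a member. Their median was -0.04, with 11 above 0 and 15 below, and 7 of 26 were lowest in pair 3. By limma 0 passed adjustment, and 4 had an unadjusted p under 0.05, against 9.53% of named genes. Of these 1 was higher, against 4.48%, and 3 were lower, against 5.05%. ACAT1, the mitochondrial thiolase, was at -0.20, -0.22, -0.28 and -0.41, below 0 in each pair, with a mean of -0.28 ± 0.10 (SD, n = 4 pairs) and an adjusted p of 0.459. MYLIP, a ubiquitin ligase induced by oxysterols that removes lipoprotein receptors, was at -0.54, -0.24, -0.25 and -0.51, with a mean of -0.39 ± 0.16 and an adjusted p of 0.459. Pair 3 did not stand apart in either gene. MBTPS1, the protease that first cleaves SREBP, averaged -0.23 ± 0.19, and NR1H2, an oxysterol receptor, 0.16 ± 0.11, with adjusted p of 0.617 and 0.616.

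Each slide held both groups, and a slide term over the pairs was called for 0 of the 26 members, as for 0.00% of named genes. Its unadjusted p was under 0.05 for 2 members, against 4.62%. Pairs 3 and 4, which opposed each other in CYP51A1, share the second slide, so that its mean there was 0.03, against 0.57 on the first slide. The median over members was 0.048 on the first slide and 0.0096 on the second.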

How the data were processed

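The deposited scanner files of the 8 arrays give a spot and a local background intensity per channel, raw and not normalized per the file headers. The authors' deposited table of log2 values has no stated normalization. Against the scanner ratios it had an r of 0.690 to 0.835 across probes, the lowest on area 1 of the second slide. It was therefore read as log2 vitrified over control, and it served as an alternative. Its column medians were 0.0031, -0.0012, -0.00032, 0.0035, -0.0098, 0.00064, -0.010 and 0.010. Mean spot intensities less median background were corrected with normexp (offset 50) and normalized by loess within arrays. Control spots had weight 0 there. R 4.3.3 and limma 3.58.1 were used. Spots set aside in the scanner files, 151 over all arrays, were dropped with their pair. Of these, 50 were on area 1 of the second slide, against 2 to 29 on the other arrays. Detection used 153 negative control spots. Channel levels were scaled by A-quantile normalization. The mean of each dye-swap pair was tested against 0 with lmFit and eBayes. The fit was tested on simulated data. The annotation gave 21790 probes 1 symbol and 22004 none, and all 27 members were found in the RefSeq table. Members and lists were chosen with earlier results of these data known. All members are named; values per pair go to those with an unadjusted p under 0.05, the same sign in all pairs or a ratio of at least 0.3, and to others chosen after their values were seen. Promoter motifs were not analysed here.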

Additional observations from a re-analysis of the deposited data

Results flagged for a closer look

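In 52 groups of values, of which chance flags about 2.6, 8 held a value far from the others. Among the ratios over pairs, pair 3 was the far value for 3 probes of FDPS, at -0.479 against 0.249 to 0.367 in the other pairs, at -0.447 against 0.161 to 0.198, and at -0.512 against 0.176 to 0.250. It was also the far value for the CYP51A1 probe EMBV3_33438, at -0.838 against 0.556 to 0.702, and for the MVK probe EMBV3_04685, at -0.0653 against 0.0955 to 0.128. Probes of a gene share their pools, so these are not separate events. The MSMO1 probe EMBV3_19872 had pair 2 at 0.115 against -0.771 to -0.684, and SREBF1 had pair 1 at 0.440 against -0.0852 to -0.0344. On area 1 of the second slide 28.0% of probes were above background, against 72.3% to 79.2%.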

How the results depend on the processing

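Under 19 alternatives no member's leading probe was called. The INSIG1 probe EMBV3_18281 was called when the 8 arrays were counted singly (adjusted p = 0.0278 by limma), a fit that counts each dye-swap pair as 2 and that called 615 probes, against 0 over pairs. With the labelled replicate numbers averaged, the smallest adjusted p was 0.153 over leading probes (LBR) and 0.111 over all member probes (EMBV3_18281). The median over members was 0.071, and it stayed above 0 under processing alternatives, from 0.019 with median centring, with 13 of 26 above 0, to 0.092 with no offset. Leaving out 1 pair gave -0.024 to 0.084, the lowest without pair 4, where 12 of 26 were above 0. The number of members lowest in pair 3 was 15, and 13 to 19 in the alternatives with 4 pairs. Without pair 4, CYP51A1 was at 0.035. Over processing alternatives 9 of 332 member values changed sign, all with a main value within 0.0777 of 0. With pairs or slides left out 20 of 156 did, in 12 genes with main values up to 0.247 in size: LBR was at 0.065 on the first slide, against -0.25, and HSD17B7 at -0.045 without pair 4, against 0.19. The dim probes limit LSS, STARD4, PMVK, MVD, DHCR7 and SCAP. Keeping the spots set aside in the files, using mean local background and counting members lowest in pair 3 were chosen after seeing the data. No promoter test was run.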
